A study of Mus musculus with 27 samples.

Results

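The skeletal troponins are 6 genes: *Tnnt3*, *Tnni2* and *Tnnc2* make the fast troponin T, I and C, and *Tnnt1*, *Tnni1* and *Tnnc1* make the slow ones. They were found by gene name on the array, where they had 7 of the 55681 probes and 6 of the 35527 gene names (a pair of probes for *Tnnt3*, 1 for each other gene), and all 7 passed the filter on low values, as did 22154 probes in all. Each of the 27 samples was RNA of 1 myofiber of the tibialis anterior, a leg muscle of mostly fast fibers, taken from male mice given as 3 months old. The 8 WT myofibers came from 2 mice, the 12 Smn1deltaSKM myofibers from 3 mice in which Cre driven by the human skeletal actin promoter deletes floxed *Smn1* in muscle fibers, and the 7 Smn1deltaSKM+AFS myofibers from 2 such mice that had also received amniotic fluid stem (AFS) cells by the tail vein at 3 months, a month before the fibers were taken. The methods describe the control fibers as those of GFP+ C57BL/6 mice, and elsewhere the controls are littermates. The comparisons asked how loss of SMN in the fiber, and then the transplanted cells, changed the fiber's RNA.

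Troponin sits along the thin filament of the sarcomere and makes contraction depend on calcium. Troponin C binds the calcium, troponin I holds actin and myosin apart until it does, and troponin T anchors the complex to tropomyosin. Fast and slow fibers use different genes for each subunit, and *Tnnc1* also serves the heart, so the troponins are widely used to tell fiber types apart.

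The probes decide which transcripts were read, so they are shown with their place in the mouse genome (build mm9). Both *Tnnt3* probes lie on the plus strand of chromosome 7, at chr7:149698500-149700262 for probe 1 and chr7:149698467-149698526 for probe 2. They share 27 bases, in capitals here:

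Tnnt3 probe 1: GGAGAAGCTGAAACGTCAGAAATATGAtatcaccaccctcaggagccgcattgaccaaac

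Tnnt3 probe 2: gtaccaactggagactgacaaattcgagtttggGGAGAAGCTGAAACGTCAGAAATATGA

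The *Tnni1* probe (chr1:137705328-137706203, plus strand) and the *Tnnc1* probe (chr14:32023360-32023776, plus strand) read transcript across at least 1 intron, as did *Tnnt3* probe 1, because their intervals are longer than the 60 bases of the probe:

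Tnni1: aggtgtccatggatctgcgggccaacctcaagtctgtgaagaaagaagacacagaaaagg

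Tnnc1: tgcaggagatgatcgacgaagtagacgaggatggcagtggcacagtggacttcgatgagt

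The probes of *Tnni2* (chr7:149630251-149630310, plus strand), *Tnnc2* (chr2:164602661-164602720, minus strand) and *Tnnt1* (chr7:4456265-4456324, minus strand) hold the polyadenylation signal AATAAA and so read the last bases of the transcript. The 30 bases around the signal, which is in capitals, were:

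Tnni2: tggcctcgctccAATAAAggattcacatct

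Tnnc2: gtgactggaaggAATAAAagttgacaatgt

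Tnnt1: tctgtaactcaaAATAAAgtgcccccaggc

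Levels below are log2 signal with the 75th percentile of the same array set to 0, and the level of one probe says nothing against that of another. A probe had a value on an array only where its spot was well above background. Between 23170 and 37580 probes had one, with medians of 25147.5 for WT, 31411 for Smn1deltaSKM and 27412 for Smn1deltaSKM+AFS. The WT arrays filled 1 slide and 1 scan day of their own, so genotype and batch cannot be told apart. Of the *Smn1* probes, one lay between 0.63 and 2.38 in WT and between -1.41 and 0.66 in Smn1deltaSKM, a difference of -1.68 (limma, adjusted p = 0.0200), and the other differed by 0.19 (limma, adjusted p = 0.716). Neither was set against the deleted part of the gene. The summed signal of 8 skeletal fiber genes, *Tnnt3* among them, ranged from 1199 to 1740 times the 75th percentile in WT, from 668 to 1114 in Smn1deltaSKM and from 1022 to 1468 in Smn1deltaSKM+AFS. Fibroblast genes summed to between 0.804 and 116 in WT and to at most 34.5 and 22.6 in the others, while the median difference of the 2 tested, *Col1a2* and *Col3a1*, was 1.13 between Smn1deltaSKM and WT, with 0 called by limma or at an unadjusted p under 0.05. Immune genes summed to between 22.4 and 35.6 in WT, 19.6 and 34.7 in Smn1deltaSKM and 18.5 and 38.2 in Smn1deltaSKM+AFS. Of the 4 tested, all named after their values were seen, 2 did not pass between Smn1deltaSKM and WT. They were *Csf1r* at -0.50 and *Cd3e* at 0.75 (limma, adjusted p = 0.172 and 0.147). The other 2 rose, *Ptprc* by 1.33 and *Cd68* by 2.99 (limma, adjusted p = 0.0220 and 0.0365), where 7.34% of probes rose. These calls and that of *Smn1* were lost when either of the WT mice was left out (0 probes called by limma, 4633 and 5968 at an unadjusted p under 0.05). The part of any of these in the troponin results was not tested.

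The fast troponins lay lower in Smn1deltaSKM than in WT, by amounts that did not pass the test. *Tnnt3* probe 1, the troponin T that sets fast fibers apart, ranged from 8.40 to 9.13 over the WT myofibers with a median of 8.73, and from 7.91 to 8.54 with a median of 8.32 in Smn1deltaSKM. The ranges overlapped, although the means of all 3 Smn1deltaSKM mice, 8.16 to 8.33, lay below those of both WT mice, 8.62 and 8.87. The difference was -0.48 (SE 0.26, limma, adjusted p = 0.211). Probe 2 differed by -0.79 (SE 0.27, limma, adjusted p = 0.0704), from 8.30 ± 0.28 (SD, n = 2 mice) in WT to 7.51 ± 0.057 (SD, n = 3 mice). The probe 2 spot of WT myofiber 8 had no usable value and was left out. It measured 7.77, inside the Smn1deltaSKM range of 7.22 to 7.83. Without Smn1deltaSKM mouse 1 probe 2 passed the test at the same size (-0.79, limma, adjusted p = 0.0399). In that fit 9710 of the 22154 probes were called, beside 4759 with all mice. As scaled here both *Tnnt3* probes pointed the same way, but they share 27 of their 60 bases and are not independent of each other.

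*Tnni2*, the fast inhibitory subunit, ran from 7.93 to 9.18 in WT with a median of 8.48 and from 6.85 to 8.38 in Smn1deltaSKM with a median of 8.20. Smn1deltaSKM myofiber 2 was the lowest, and the next lowest, at 7.79, also lay below every WT myofiber, while the other 10 lay inside the WT range from 7.93 to 8.38. The mouse means differed by -0.48 (SE 0.29, limma, adjusted p = 0.256). *Tnnc2*, the fast calcium sensor, had values on 7 of the 8 WT arrays, from 8.20 to 9.14 with a median of 8.85. The spot of WT myofiber 1 was marked uneven at 7.04 and was left out. In Smn1deltaSKM its level ran from 7.87 to 8.57 with a median of 8.28, a difference of -0.57 (95% interval -1.16 to 0.01, limma, adjusted p = 0.134).

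For all 3 fast genes the Smn1deltaSKM mice lay below both WT mice, as did 33.9% of all probes, and the share of probes with a still lower difference was 35.8% for *Tnnt3*, 35.9% for *Tnni2* and 31.9% for *Tnnc2*. The median difference over all probes was -0.14, and 0.08 when arrays were centred on probes with values everywhere. The direction rested on the scaling: *Tnnt3* came to 0.05 and *Tnni2* to 0.00275 with quantile normalization, *Tnni2* to 0.07 with normexp, and *Tnnt3*, *Tnni2* and *Tnnc2* to 0.08, 0.04 and 0.15 with the authors' values, while *Tnnt3* probe 2 was below 0 in each of its 21 alternatives, the nearest to 0 being -0.26.

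**Figure D1:**
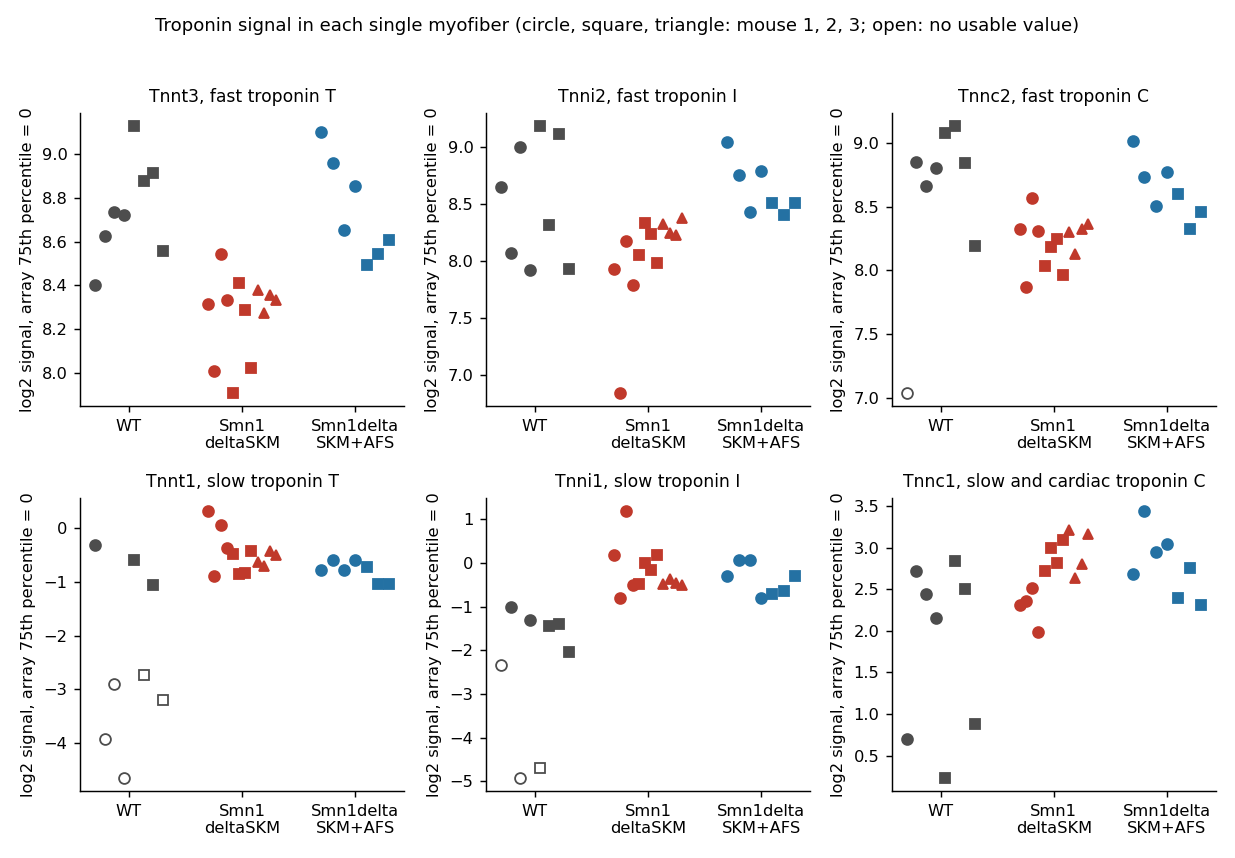
Level of each troponin gene in each myofiber, as log2 signal with the 75th percentile of the array at 0, by group and mouse; open symbols are spots without a usable value. The 12 Smn1deltaSKM and 7 Smn1deltaSKM+AFS myofibers all lie above the 8 WT myofibers for *Tnni1* (11 of the 12 with normexp), while every fast gene overlaps between WT and Smn1deltaSKM.

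*Tnni1*, the slow inhibitory subunit, rose in Smn1deltaSKM and was the only troponin of the 6 called at an adjusted p under 0.05, a call that 21.5% of all probes had and that 7.34% had as a rise. It had values on 5 of the 8 WT arrays, from -2.05 to -1.01 with a median of -1.39, and on all 12 Smn1deltaSKM arrays, from -0.80 to 1.18 with a median of -0.42. It passed the filter of 75% of arrays through the Smn1deltaSKM and Smn1deltaSKM+AFS arrays, where it was high. The WT arrays alone fell short of that share, and the WT mouse means rested on 2 and 3 myofibers. The mouse means of *Tnni1* and *Tnnc1* did not overlap between the groups, higher in Smn1deltaSKM, as in 21.4% of probes. With measured *Tnni1* signals included, the lowest Smn1deltaSKM myofiber stood 0.21 above the highest WT one, as in 3.48% of probes; with normexp 11 of the 12 stood above all of WT. The 3 other WT spots, myofibers 1, 3 and 5, were below the background limit at -2.34, -4.93 and -4.69.

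The *Tnni1* difference over mouse means was 1.21 (95% interval 0.53 to 1.88, a 2.31-fold rise, limma, adjusted p = 0.0262), and 2.21 with the measured signal of all WT spots kept. It was above 0 in all 23 alternatives. Some of these could not move it, since no spot was saturated, the gene has 1 probe and Smn1deltaSKM+AFS mice enter only the spread. The call held in 16 of the 23, counting those and the alternative with myofibers as independent replicates. It was lost with normexp (0.60, adjusted p = 0.0741), with the slide treated as a random effect (1.30, adjusted p = 0.0659), within each array row (1.35 and 1.12, adjusted p = 0.117 and 0.0800), without WT mouse 1 (1.44, adjusted p = 0.146), WT mouse 2 (0.97, adjusted p = 0.168) or Smn1deltaSKM mouse 2 (1.17, adjusted p = 0.0737), each by limma.

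*Tnnc1*, the calcium sensor of slow fibers and heart, had values on all arrays, from 0.23 to 2.84 in WT with a median of 2.30 and from 1.99 to 3.21 in Smn1deltaSKM with a median of 2.76. WT myofibers 1, 5 and 8 were the low ones, at 0.70, 0.23 and 0.88. The other 5 WT myofibers, 2.16 to 2.84, lay inside the Smn1deltaSKM range. The difference was 0.91 (95% interval 0.16 to 1.66, limma, adjusted p = 0.0792), above 0 in all 24 alternatives and called in 3 of them. Without Smn1deltaSKM mouse 1 it was 1.12 (limma, adjusted p = 0.0144), in a fit where 9710 of the 22154 probes were called. Summed signal of 5 heart genes ran from 0.334 to 0.937 in WT, from 0.879 to 1.75 in Smn1deltaSKM and from 0.676 to 1.46 in Smn1deltaSKM+AFS. *Ryr2*, the calcium channel of heart muscle, had no value on any array. The other 4, the cardiac troponins *Tnnt2* and *Tnni3* among them, had values on some Smn1deltaSKM arrays. So did 3 of them on WT arrays, all but *Tnni3*, and 3 on Smn1deltaSKM+AFS arrays, all but *Tnnt2*. Only *Myh6* was tested, with a difference of 0.39 between Smn1deltaSKM and WT (limma, adjusted p = 0.351).

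*Tnnt1*, the slow troponin T, had values on 3 of the 8 WT arrays, -0.32, -0.60 and -1.05 in myofibers 1, 5 and 7. It had values on all 12 Smn1deltaSKM arrays, from -0.89 to 0.31 with a median of -0.50. Like *Tnni1*, it passed the filter through the Smn1deltaSKM and Smn1deltaSKM+AFS arrays, and its WT mouse means rested on 1 and 2 myofibers. Where it was measured it overlapped between the groups, and the mouse means differed by 0.09 (95% interval -0.58 to 0.76, limma, adjusted p = 0.839). The other 5 WT spots measured between -4.65 and -2.73, below the limit. With those kept the difference was 1.94 (limma, adjusted p = 0.0167). The result for *Tnnt1* thus turned on how undetected spots were handled.

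**Figure D2:**
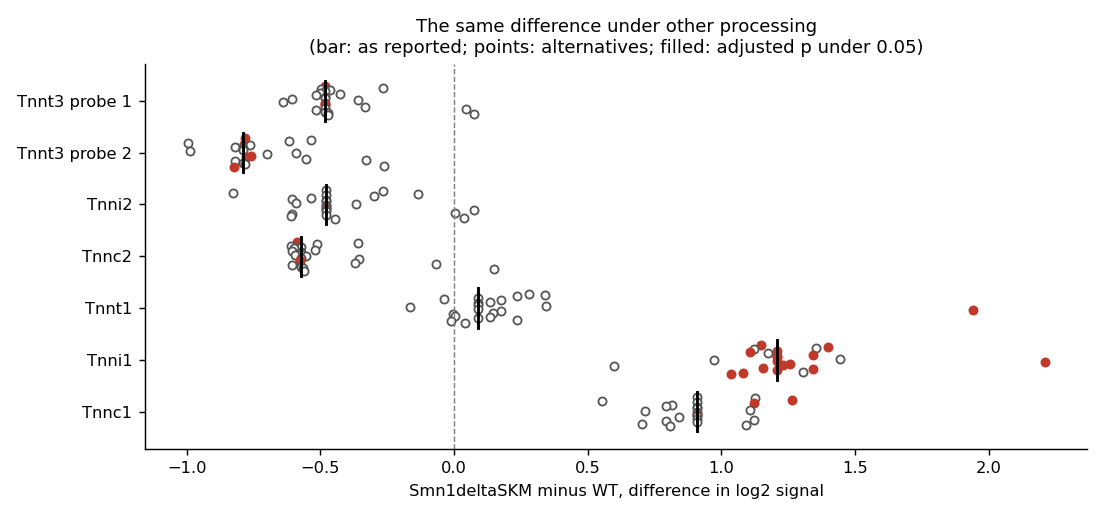
Difference between Smn1deltaSKM and WT for each of the 7 troponin probes on the log2 scale, as reported (bar) and under each alternative processing (points; filled where limma gave an adjusted p under 0.05). *Tnni1* and *Tnnc1* stay above 0 throughout, *Tnnt3* probe 1, *Tnni2*, *Tnnc2* and *Tnnt1* cross it, and the points at 1.94 and 2.21 keep the signal of undetected WT spots.

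The WT values of 3 troponins also went with the place of the array on its slide, row 1 or row 2, which alternated within each WT mouse. *Tnni2* measured 8.65 to 9.18 on the 4 row 1 arrays and 7.93 to 8.32 on the 4 row 2 arrays, with no overlap, a difference in means of 0.92. *Tnnt1* was detected on 3 row 1 arrays and on 0 row 2 arrays, a difference of 2.41. *Tnni1* went the other way, detected on 1 row 1 array and on 4 row 2 arrays, a difference of -1.88. Rows did not overlap for 7.92% of probes on the WT slide and for 1.36% on the slide of Smn1deltaSKM mice 2 and 3, where the row differences of all 7 troponin probes lay between -0.23 and 0.07. What the rows shared besides their place was not tested. Between Smn1deltaSKM and WT, *Tnni2* differed by -0.83 on row 1 arrays alone and by -0.13 on row 2 arrays. *Tnnc1* differed by 1.26 on row 1 (limma, adjusted p = 0.0394) and by 0.55 on row 2 (limma, adjusted p = 0.343).

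**Figure D3:**
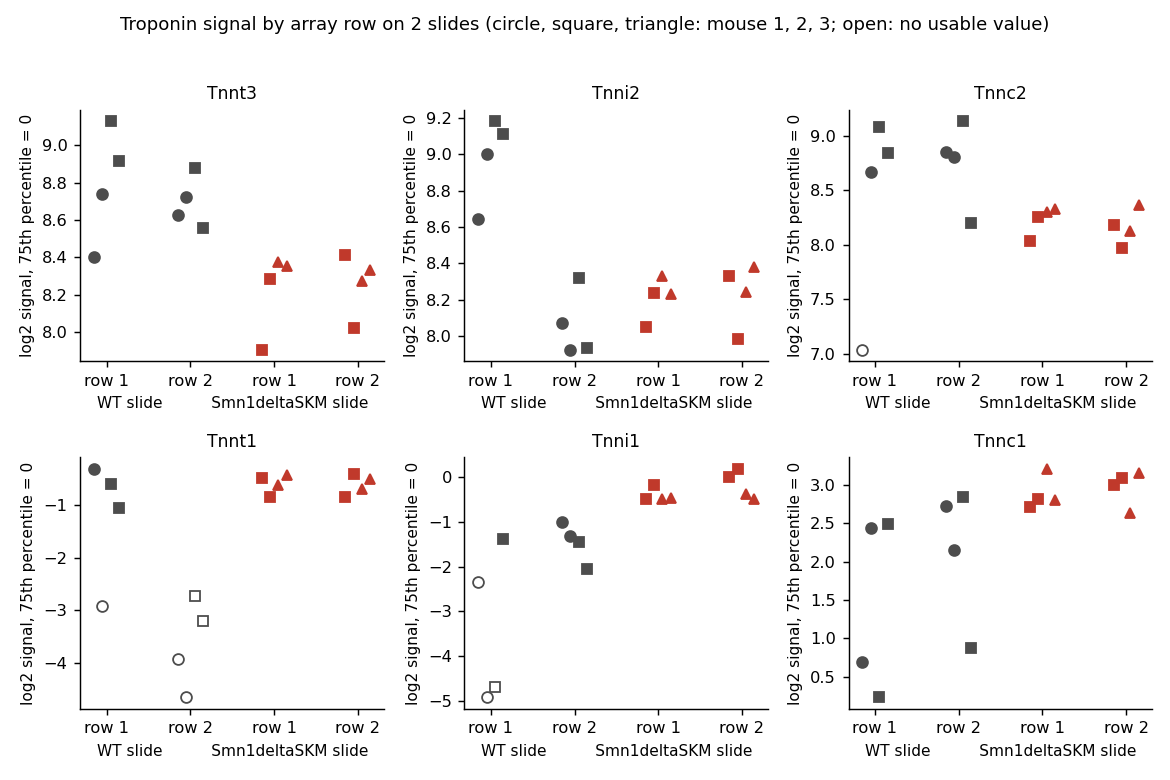
Level of each troponin (log2 signal, array 75th percentile at 0) by array row, on the slide of all 8 WT myofibers and on the slide of the 8 myofibers of Smn1deltaSKM mice 2 and 3. *Tnni2* separates by row in WT, at 8.65 to 9.18 against 7.93 to 8.32, and in WT *Tnnt1* has 0 usable values on row 2 and *Tnni1* has 1 on row 1 (open symbols are spots without one).

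After transplantation no troponin was called against Smn1deltaSKM, where limma called 0 of the 22154 probes (0% of probes; 713, or 3.22%, had an unadjusted p under 0.05). *Tnnt3* probe 1 ran from 8.49 to 9.10 in Smn1deltaSKM+AFS with a median of 8.65, and the mouse means of 8.89 and 8.55 lay above the 3 Smn1deltaSKM means. The difference was 0.46 (95% interval -0.15 to 1.06). *Tnnc2* ran from 8.33 to 9.02 with a median of 8.60, a difference of 0.39 (95% interval -0.20 to 0.97). Probe 2 of *Tnnt3* ran from 7.59 to 8.29 with a median of 7.88, a difference of 0.38 (SE 0.27). Each of these overlapped Smn1deltaSKM in its myofibers.

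*Tnni2* ran from 8.40 to 9.05 in Smn1deltaSKM+AFS with a median of 8.51, and the lowest of its 7 myofibers stood 0.022 above the highest of the 12 Smn1deltaSKM myofibers, as in 0.113% of probes. With quantile normalization 0 of the 7 stood above all 12, and with median centring 4 did. The difference was 0.57 (95% interval -0.10 to 1.24). The 3 fast genes were thus among those whose mice did not overlap, higher after transplantation, as were 12.3% of probes. Their limma adjusted p was 1.00.

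None of the slow troponins was called either. *Tnnt1* ran from -1.04 to -0.59 in Smn1deltaSKM+AFS with a median of -0.77, and its mouse means lay below those of Smn1deltaSKM, a placing that 4.23% of probes had. The difference was -0.33 (SE 0.29). *Tnni1* ran from -0.80 to 0.07 with a median of -0.30 and overlapped Smn1deltaSKM, with a difference of -0.21 (95% interval -0.88 to 0.46). *Tnnc1* ran from 2.31 to 3.44 with a median of 2.76, with a difference of 0.04 (95% interval -0.71 to 0.80), which was below 0 with median centring, quantile normalization, normexp and the authors' values, at -0.05 to -0.08, and was 0.43 with slide as a random block and 1.04 with slide as a fixed block (limma, adjusted p = 0.202, unadjusted p = 0.0123).

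Both groups were present on 2 scan days. On the first, with 1 mouse a group and no test, Smn1deltaSKM+AFS minus Smn1deltaSKM was 0.52 for *Tnnt3* probe 1, 0.94 for *Tnni2*, 0.36 for *Tnnc2*, -0.51 for *Tnnt1*, -0.12 for *Tnni1* and 0.80 for *Tnnc1*. On the second it was 0.49, 0.61, 0.44, -0.28, -0.19 and 0.06 in the same order, with limma adjusted p from 0.928 to 0.986. Each troponin kept its direction on both days, but mouse 1 of each group was on both, so the days are not independent. On the second day Smn1deltaSKM mouse 1 was myofiber 4 alone, for *Tnnc1* the lowest of its group at 1.99. How many of all probes kept their direction was not counted.

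Against WT, Smn1deltaSKM+AFS had no troponin called, where 7.34% of probes were. *Tnni1* was higher by 1.00 (95% interval 0.26 to 1.74, limma, adjusted p = 0.0886) and all 7 myofibers stood above all 8 of WT, as in 6.63% of probes. *Tnnc1* differed by 0.95 (limma, adjusted p = 0.127). The mice of both genes did not overlap, higher than WT, as in 30.8% of probes, and those of *Tnnc2* and of *Tnnt3* probe 2 did not, lower than WT, as in 37.2%. The *Tnnt3* probes differed here: probe 2 was below 0 in all 21 alternatives, from -0.75 to -0.15, and probe 1 turned in 7 of 24. Without Smn1deltaSKM mouse 1, which enters only the estimate of spread, *Tnni1* and *Tnnc1* passed, at adjusted p = 0.0297 and 0.0353 by limma. In that fit 6500 of the 22154 probes were called. The fast genes differed by -0.03 for *Tnnt3* probe 1, -0.41 for *Tnnt3* probe 2, 0.09 for *Tnni2* and -0.18 for *Tnnc2*, with SE from 0.28 to 0.32, and *Tnnt1* by -0.24. The comparisons share samples, so they are not independent of each other.

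In order of group mean, *Tnnt3* probe 1 stood at 8.75 in WT, 8.72 in Smn1deltaSKM+AFS and 8.26 in Smn1deltaSKM, probe 2 at 8.30, 7.89 and 7.51, and *Tnnc2* at 8.79, 8.61 and 8.22. *Tnni2* stood at 8.61 in Smn1deltaSKM+AFS, 8.52 in WT and 8.04 in Smn1deltaSKM. *Tnni1* ran from -1.39 in WT through -0.39 in Smn1deltaSKM+AFS to -0.19 in Smn1deltaSKM, and *Tnnc1* from 1.81 through 2.72 in Smn1deltaSKM to 2.76 in Smn1deltaSKM+AFS. *Tnnt1* stood at -0.48 in Smn1deltaSKM, -0.57 in WT and -0.81 in Smn1deltaSKM+AFS. No neighbours in these orders differed past the test, and the ends differed past it in *Tnni1* alone.

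**Figure D4:**
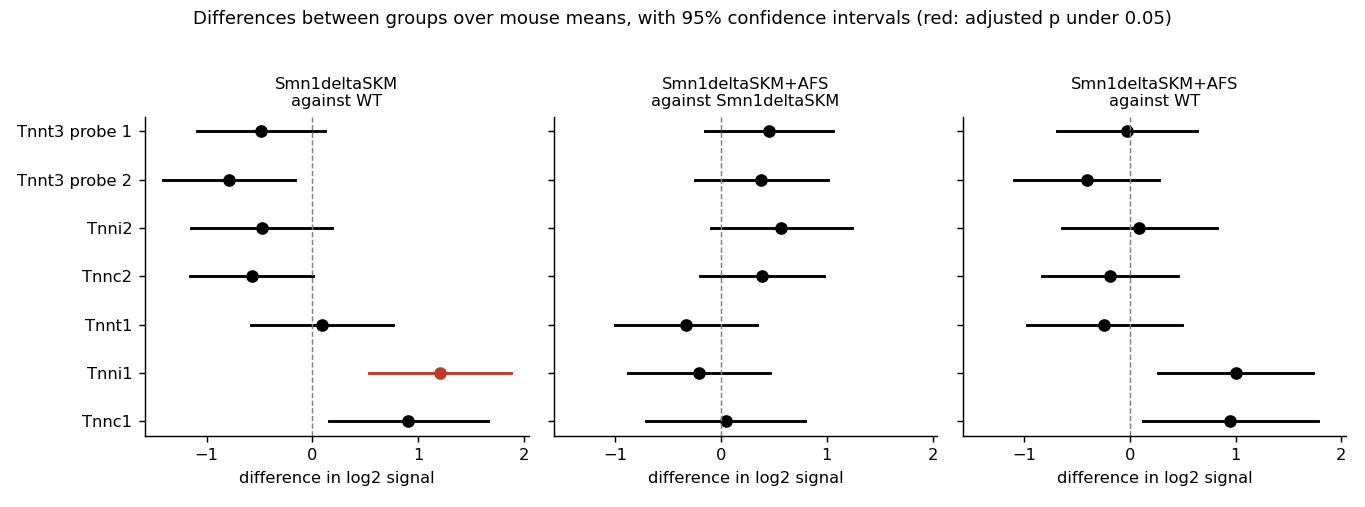
Differences between groups in log2 signal for the 7 troponin probes, with 95% confidence intervals from limma over 7 mouse means. Only *Tnni1* in Smn1deltaSKM against WT, at 1.21 (red), had an adjusted p under 0.05, and all 7 intervals of Smn1deltaSKM+AFS against Smn1deltaSKM include 0.

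With undetected spots left out, the spread between myofibers of one mouse differed by group most in *Tnnc1*, with no test made. Over all 27 myofibers the SD about the mouse mean was 0.18 for *Tnnt3* probe 1, smaller than for all but 0.664% of probes, 0.24 for *Tnnc2* and 0.40 for *Tnni2*, against a median of 0.45 over all probes. It was 0.29 for *Tnnt1* over its 22 values, 0.45 for *Tnni1* over 24 and 0.63 for *Tnnc1*. For *Tnnc1* it was 1.09 in WT, 0.23 in Smn1deltaSKM and 0.28 in Smn1deltaSKM+AFS, where *Tnnt3* probe 1 had 0.20, 0.19 and 0.15 and *Tnni1* had 0.32, 0.54 and 0.35. The *Tnni1* value of WT rests on 5 of its 8 spots, and all 8 measured from -4.93 to -1.01. With the measured signal of undetected spots kept, *Tnni1* had an SD of 1.00 and *Tnnt1* one of 0.91, both above the 0.63 of *Tnnc1*. The spots so added were all WT, so the place of *Tnnc1* as most different by group may not hold with them. With normexp *Tnni2* had an SD of 0.54, larger than that of 88.3% of probes, and *Tnnt3* one of 0.19.

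Correlations between troponins from fiber to fiber were highest among the fast genes as scaled here. About the mouse mean, over the 19 myofibers of both Smn1deltaSKM groups, Pearson's r was 0.91 between *Tnni2* and *Tnnc2*, 0.83 between *Tnnt3* and *Tnni2* and 0.82 between *Tnnt3* and *Tnnc2*. Quantile normalization gave 0.87, 0.65 and 0.50. Over all 27 myofibers the values were 0.61, 0.66 and 0.78, and the first was 0.15 with the authors' values, 0.22 with measured signal kept and 0.34 with normexp. Fast and slow genes also correlated over the 19, at 0.59 for *Tnni2* with *Tnnt1*, 0.55 for *Tnni2* with *Tnni1* and 0.48 for *Tnnt3* with *Tnni1*. With quantile normalization *Tnnc2* with *Tnnt1* reached 0.77, above *Tnnt3* with *Tnnc2*. Among the slow genes, *Tnnt1* and *Tnni1* reached 0.49 over the 19, *Tnni1* and *Tnnc1* 0.32 and *Tnnt1* and *Tnnc1* 0.15. These describe points that share arrays, slides and amplification.

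The genes most like each troponin were sought among up to 6972 named genes with values on all 27 arrays, by Pearson's r of deviations from the mouse mean. *Tnnt3* went most with *Rpl19*, *Oaz1* and *Gm11353* (r from 0.84 to 0.86, 27 myofibers), of which *Rpl19* codes for a ribosomal protein. *Tnni2* went with *Prr24* (now *Inafm1*), the chaperone gene *Hspa5* and the corepressor gene *Ctbp1* (0.85 each). *Tnnc2* went with *Gm15294*, *Gm5863* and *Gapdh*, the glycolytic enzyme (0.89 each, 26 myofibers). *Tnnt1* went with *P2ry2*, *Phf13* and *Wdr4* (0.72 to 0.82, 22 myofibers), *Tnni1* with *Apoa1bp* (now *Naxe*), *Flot1* and *Shisa4* (0.82 each, 24 myofibers) and *Tnnc1* with *Pqbp1*, *Gm4948* and *Ldhc* (0.82 to 0.87, 27 myofibers). Without WT the *Tnnc1* values fell to 0.62, 0.41 and -0.27. Each r above is among the highest of a search, so it is high by selection. With mouse means not taken off, r was -0.16, 0.28 and -0.30 for the *Tnni1* genes and 0.15, 0.45 and 0.60 for those of *Tnnt1*. For the genes of the other troponins it ran from 0.25 to 0.94.

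*Myh4*, the fastest myosin heavy chain, had values in all 27 myofibers, from 6.01 to 7.94. *Myh2* of the fast oxidative fibers was detected in 2 of 12 Smn1deltaSKM and 2 of 7 Smn1deltaSKM+AFS myofibers and in 0 WT myofibers. *Myh7*, the slow heavy chain, had medians of -0.71, -0.75 and -0.54 in WT, Smn1deltaSKM and Smn1deltaSKM+AFS. Its mice did not overlap between the last pair, higher after transplantation as in 12.3% of probes, by 0.13 (limma, adjusted p = 1.00). Its myofibers overlapped there, and *Myh7* differed by -0.08 between Smn1deltaSKM and WT (limma, adjusted p = 0.822). *Myh1*, which marks fast fibers between those of *Myh2* and *Myh4*, rose by 2.20 in Smn1deltaSKM (limma, adjusted p = 0.0225) and by 3.45 in Smn1deltaSKM+AFS (limma, adjusted p = 0.0195), both against WT. Leaving out either of the WT mice took away both *Myh1* calls, since limma then called 0 probes (3366 to 5968 had an unadjusted p under 0.05). Across the 27 myofibers about the mouse mean, Pearson's r of the troponins with *Myh1* ranged from -0.22 for *Tnnc1* to 0.26 for *Tnnt3*, measured signals included.

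**Figure D5:**
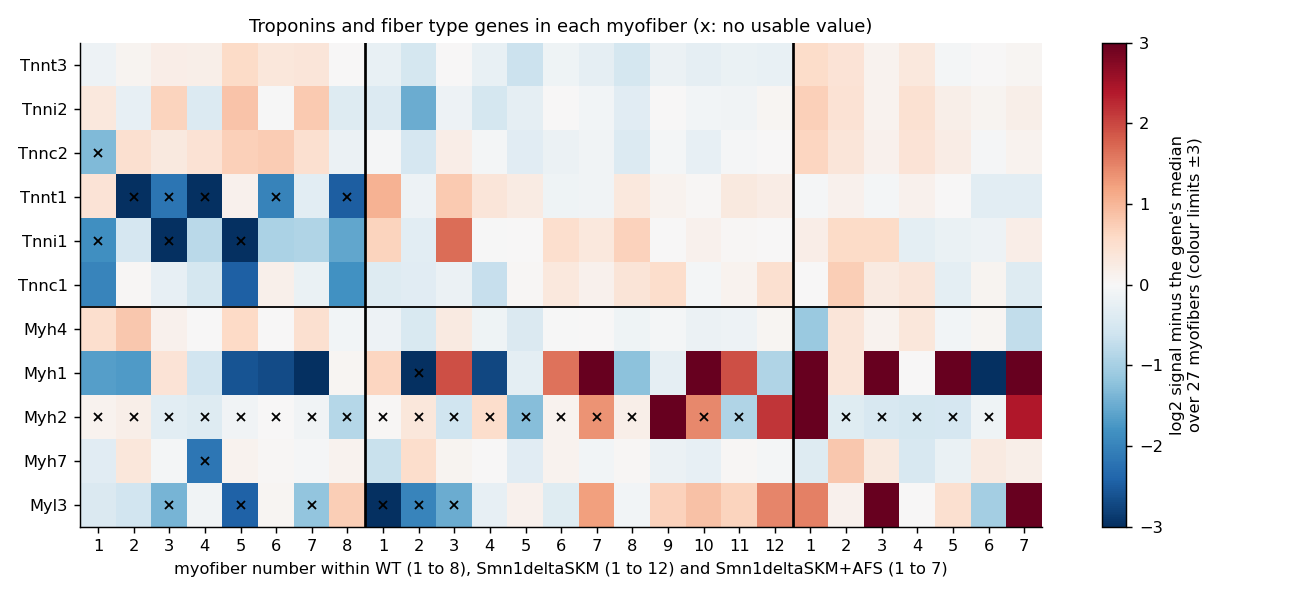
Level of the 6 troponins, 4 myosin heavy chains and the slow light chain *Myl3* in each of the 27 myofibers, as log2 signal minus the median of that gene over all myofibers; crosses are spots without a usable value. *Myl3* stands out in Smn1deltaSKM+AFS myofibers 3 and 7, at 4.98 and 4.47 before the median is taken off, where *Tnnt1* is at -0.78 and -1.04.

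Other sarcomere genes were counted in 3 lists beside the troponins. Of 12 tested thin filament genes 4 fell in Smn1deltaSKM against WT and 0 rose, with a median difference of -0.73, where 14.1% of all probes fell: the filament-capping *Tmod4* and *Tmod1*, *Cap2* and the tropomyosin *Tpm1*, the last named after its value was seen. Of 14 tested fast program genes, *Tpm1* again among them, 9 fell and 1, *Myh1*, rose, with a median of -1.10. The largest falls were those of the light chain *Mylpf* (-1.99), its kinase *Mylk2* (-1.86) and the creatine kinase *Ckm* (-1.76), each larger than the falls of the fast troponins. The counts of falls were 2 and 5 with median centring and 1 and 2 with quantile normalization. Over all 22154 probes, limma without Smn1deltaSKM mouse 1 called 5712 lower and 3998 higher, beside 3133 and 1626 with all mice. The counts rested on the mice: they were 0 and 0 without either WT mouse, 8 and 11 without Smn1deltaSKM mouse 1, 1 and 3 without mouse 2 and 2 and 4 without mouse 3.

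Of 8 tested slow program genes 2 rose in Smn1deltaSKM and 0 fell, with a median of 0.84, where 7.34% of all probes rose: the stretch-responsive *Ankrd2* (3.27) and the slow myosin relative *Myh7b* (2.12). The count was 0 without either WT mouse and 3 without Smn1deltaSKM mouse 1. Against WT, Smn1deltaSKM+AFS had 3 of the 8 higher, *Ankrd2* (4.72), *Myh7b* (3.47) and *Myl3* (1.89), where 2.99% of probes were. Of the 8, only *Mybpc1* had values on all arrays, so *Ankrd2*, *Myh7b* and *Myl3* each lacked some. *Myl3* had values on 5 of the 8 WT, 9 of the 12 Smn1deltaSKM and all 7 Smn1deltaSKM+AFS arrays. The WT arrays alone fell short of the 75% share, and undetected spots did not enter the WT means. In that comparison limma called 0 probes of any kind without WT mouse 1, WT mouse 2 or Smn1deltaSKM+AFS mouse 1 (3366, 4312 and 3725 had an unadjusted p under 0.05). *Myl3* measured 4.98 and 4.47 in Smn1deltaSKM+AFS myofibers 3 and 7, the highest of all, and between -2.42 and 0.11 in the others of that group. The slow troponins of myofibers 3 and 7 were not the highest: *Tnnt1* was -0.78 and -1.04, *Tnni1* 0.07 and -0.30 and *Tnnc1* 2.95 and 2.31. Neither list had a call between Smn1deltaSKM+AFS and Smn1deltaSKM, nor did the thin filament list.

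Promoter sequence was at hand in RefSeq (build GRCm38.p6) for 4 of the genes, *Tnnt1*, *Tnni1*, *Tnnc1* and *Tnnc2*. In the 250 bases before the start, the E-box (CANNTG, bound by MyoD and its relatives) was found in all 5 windows of these genes, with 1 to 4 matches, and in 66.2% of the windows of all genes. The MCAT element (CATTCC, either strand), a muscle promoter element, was found in the *Tnnc1* window alone of these, and in 12.6% of all windows. The MEF2 box (2.92% of all windows) and the CArG box (1.47%) were not matched, and TATAAA (12.4%, either strand) was matched in *Tnnt1* alone. The calcium sensors are shown as the fast and slow pair with windows, with E-box and MCAT matches in capitals:

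Tnnc2 (chr2:164779735-164779984, minus strand): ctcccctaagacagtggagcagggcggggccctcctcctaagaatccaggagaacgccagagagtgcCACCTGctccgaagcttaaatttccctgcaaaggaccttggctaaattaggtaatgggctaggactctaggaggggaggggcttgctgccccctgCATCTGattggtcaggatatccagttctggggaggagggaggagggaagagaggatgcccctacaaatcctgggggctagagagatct

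Tnnc1 (chr14:31208062-31208311, plus strand): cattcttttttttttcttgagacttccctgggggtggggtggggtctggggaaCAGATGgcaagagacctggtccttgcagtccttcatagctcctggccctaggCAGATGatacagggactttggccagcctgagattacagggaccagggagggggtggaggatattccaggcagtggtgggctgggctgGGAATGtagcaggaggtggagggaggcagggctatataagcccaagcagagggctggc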

How the data were processed

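RNA from single myofibers was amplified over 18 cycles, labelled with Cy3 and hybridized to Agilent mouse arrays. Per the file headers, the deposited intensity is the processed signal of Agilent Feature Extraction 10.7.3.1, background-subtracted and detrended within the array. The authors' value table, also an intensity, gives linear values with column medians from 57.4 to 177, and correlated with the scanner log2 values at 0.998 to 1.00 within arrays. How it was scaled is not given in the sources used here, so its centring between arrays stays unknown.

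Log2 signals were scaled by setting each array's 75th percentile to 0. Spots not found, not well above background, uneven or marked as population outliers were left out, and no spot was saturated. Probes with values on at least 75% of arrays were tested, and a gene was counted by its brightest probe. Since genotype belongs to the mouse, myofibers were averaged by mouse and limma 3.58.1 compared the 7 mouse means, with Benjamini-Hochberg adjustment over 22154 probes, where the study's methods tested myofibers. Calls took an adjusted p under 0.05. The number of arrays limits the precision. The test was checked on simulated data.

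The text names every troponin probe, *Smn1*, 4 myosin heavy chains and the 3 genes most like each troponin by correlation (gene names known to RefSeq only). Per comparison and list, it also names the 3 called sarcomere genes that rose and fell most. *Tpm1* of the thin filament list, *Ptprc*, *Cd68*, *Cd3e*, *Csf1r*, *Col1a2*, *Col3a1* and the heart genes were named after their values were seen. The troponins and lists were chosen with earlier results of these data known. Alternatives covered scaling, background, filters, blocks and each mouse left out; array rows and the first scan day were added after seeing the data.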

Additional observations from a re-analysis of the deposited data

How the results depend on the processing

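Of the troponin genes called between Smn1deltaSKM and WT (1 of 6), 0 were called with normexp, with slide as a random block, among the 3 with values on all arrays and among the 5 testable on row 2 arrays; 2 were with measured signal kept, 3 with myofibers as replicates and mouse as a random block, with or without the array row, and 5 with myofibers as independent replicates. Leaving out each mouse gave 0 to 2. Against WT, Smn1deltaSKM+AFS had 1 with measured signal kept, 2 with independent myofibers and 0 to 2 with each mouse left out. Between Smn1deltaSKM+AFS and Smn1deltaSKM the count was 0 in every alternative run.

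Thin filament genes lower (4) and fast program genes lower (9) numbered 2 and 5 with median centring, with measured signal kept and on row 1 arrays, 1 and 2 with quantile normalization and with the authors' values, and 0 and 4 on row 2 arrays. The thin filament count was 7 with myofibers in mouse blocks, with or without the array row, and 9 with independent myofibers. Slow program genes higher (2) numbered 1 with mouse blocks, with or without the row, and 0 with slide as a random block and on row 2 arrays. Among probes with values on all arrays only 1 of the 8 was tested, and 0 were called higher. With each mouse left out the 3 counts ranged from 0 to 8, 0 to 11 and 0 to 3.

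Turned differences of Smn1deltaSKM against WT were *Tnnt3* probe 1 at 0.046 and *Tnni2* at 0.00275 (quantile), *Tnni2* at 0.075 and *Tnnt1* at -0.0023 (normexp), *Tnnt3* probe 1 at 0.076, *Tnnc2* at 0.15, *Tnni2* at 0.038 and *Tnnt1* at -0.013 (the authors' values), and *Tnnt1* from -0.16 to 0.34 with each mouse left out. Against WT, Smn1deltaSKM+AFS turned for *Tnnt3* probe 1 to 0.10 (centring), 0.19 (quantile), 0.22 (the authors' values), 0.018 (slide as a random block) and 0.017 (no first scan day), for *Tnnc2* to 0.22 (the authors' values) and 0.032 (measured signal kept), for *Tnni2* to -0.35 (row 1) and -0.061 (row as a block) and for *Tnnt1* to 1.61 (measured signal kept); left-out mice gave -0.20 to 0.15 for *Tnnt3* probe 1, -0.050 to 0.23 for *Tnni2* and -0.49 to 0.015 for *Tnnt1*. Against Smn1deltaSKM, *Tnnc1* turned to -0.047 (centring), -0.077 (quantile), -0.057 (normexp), -0.078 (the authors' values) and -0.038 (row 1), and ranged from -0.23 to 0.31 with each mouse left out. Causes were not tested.

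Mouse numbers name different animals, and deviations of same-numbered mice correlated at -0.05 to 0.30. With the mouse number as a replicate block 1 troponin was called (*Tnni1*, 1.34, adjusted p = 0.0388), thin filament and fast program genes lower were 2 and 4, and probes called went from 4759 to 3093.

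Probes called between Smn1deltaSKM and WT were also 3144 among those with values everywhere, 2320 with slide as a random block, 2353 on row 2, 7720 and 7664 with mouse blocks without and with the row, 11994 with independent myofibers, and 0 to 9710 with each mouse left out; their share lower was 65.8%, and 45.0% with median centring. Against WT, Smn1deltaSKM+AFS had 1626, and 787 with quantile normalization, 963 with the authors' values, 1054 with values everywhere, 2759 with measured signal kept, 2462 without the first scan day, 4445 and 4517 with mouse blocks, 9150 with independent myofibers, 0 on row 2, and 0 to 6500 with each mouse left out. Against Smn1deltaSKM it had 26 with independent myofibers and 520 with slide as a fixed block.

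Signal over background limited *Tnnt1* and *Tnni1* in WT, where 5 and 3 of 8 spots gave no value.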
